A study of Mus musculus with 6 samples.

Results

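The genes described here are 8 enzymes of arachidonic acid metabolism, *Ptgs1*, *Ptgs2*, *Ptges*, *Ptges2*, *Ptgr1*, *Hpgd*, *Alox15* and *Alox12e*. They were taken by symbol from the 20483 genes of the single-cell RNA-Seq (scRNA-Seq) count table, and 0 of the 8 were absent. Single cells were taken from cultures of tracheal epithelium of C57BL/6 mice, 12 weeks old, grown at air-liquid interface (ALI), a culture in which basal cells differentiate into secretory and multiciliated cells. The 3 *WT/WT* mice (WT1, WT2 and WT3) were littermates of the 3 *MIS/MIS* mice (MT1301, MT1306 and MT1383), which carry on both alleles a missense change in *Dnaaf5*, a factor that helps assemble the dynein motors of cilia. The change was made by CRISPR-Cas9 in the germ line, so every cell of the culture carries it, and it leaves no mark in a count per gene, so the genotype labels could not be checked from *Dnaaf5*.

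Cyclooxygenases turn arachidonic acid into prostaglandin H2, from which terminal synthases make the individual prostanoids. *Ptgs1* encodes the cyclooxygenase found in many resting tissues and *Ptgs2* the inducible one. *Ptges* and *Ptges2* encode prostaglandin E synthases, and prostaglandin E2 is a main prostanoid of airway epithelium. *Hpgd* encodes 15-hydroxyprostaglandin dehydrogenase, which starts the inactivation of prostaglandin E2, and *Ptgr1* encodes a reductase that acts on the keto product and on leukotriene B4. *Alox15* and *Alox12e* encode lipoxygenases, which add oxygen to polyunsaturated fatty acids without making prostaglandins.

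Each value is a count of unique molecular identifiers (UMIs), and levels are given as CPM, the UMIs of a gene per 1000000 UMIs of the same cells. The mice contributed between 2673 and 6710 cells and between 100961835 and 153326568 UMIs, with medians of 21328 to 35383 UMIs per cell, and 67 of 23804 cell barcodes occurred in more than 1 mouse. The labels name 1 animal per library, so the spread between mice is between animals. The authors named 16 cell types among the 23871 cells. Of their defining genes, *Krt5* was highest in Basal4 (942 CPM), *Scgb3a2* in Secretory1 (13504), *Foxj1* in Multiciliated2 (716), *Foxi1* in Ionocyte (669) and *Chga* in Neuroendocrine (2241). However, *Krt5* reached no more than 43.0 CPM in Basal8 and 68.6 in Basal7, below its 100 CPM in Secretory2. *Krt14*, another basal marker, stood at 793 CPM in Basal7 and 44.8 CPM in Basal8. Ionocyte held 28 cells and Neuroendocrine 163. Basal4 took 1048 of its 1365 cells from WT1, and Multiciliated4 held 146 cells with a median of 10197 UMIs. A mouse entered the mean of a type where it had at least 20 cells of it. Of the tuft cell list, 5 of 6 genes are in the table, and *Pou2f3*, *Avil* and *Gnat3* stayed at or below 2.46, 1.44 and 1.44 CPM in every type, while *Lrmp* reached 9.31 CPM in Basal4 and *Dclk1*, with 28156 UMIs the bulk of the list, 273 CPM in Basal7 and 68.3 CPM in Secretory1. Of the leukocyte list, 5 of 6 genes are in the table, with *Ptprc*, *Cd3e* and *Cd79a* at or below 0.427, 0.0539 and 0.130 CPM. However, *Cd68* reached 40.3 CPM in Secretory2. *Lyz2* reached 6613 CPM in Ionocyte, 2563 in Multiciliated1, 2195 in Basal7 and 1972 in Secretory1. The summed level of the tuft list was 23.9 to 51.3 CPM in the *WT/WT* and 26.7 to 60.6 CPM in the *MIS/MIS* mice, and that of the leukocyte list 530 to 1102 and 770 to 1102 CPM.

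Over all cells, *Ptgs2* had 144732 UMIs (193 CPM) and at least 1 UMI in 57.6% of cells, and *Ptges* 63798 UMIs (85.2 CPM) in 62.7%. *Ptgr1* was found in 64.4% of cells (48549 UMIs), *Ptges2* in 50.3% (19550) and *Ptgs1* in 24.6% (9995). *Hpgd* (8384 UMIs) and *Alox15* (8215) were found in 12.5% and 10.5% of cells. *Alox12e* was the scarcest, with 1817 UMIs in 2.62% of cells. The 1% of all cells richest in each gene held 75.6% of the *Alox12e*, 40.4% of the *Alox15* and 39.3% of the *Hpgd* UMIs. The shares were 14.98% for *Ptgs2*, 14.76% for *Ptgs1*, 11.93% for *Ptgr1*, 6.71% for *Ptges2* and 6.69% for *Ptges*. Few cells had a UMI of the scarcest genes, which by itself raises such a share. The shares therefore do not measure unevenness apart from scarcity.

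In the RefSeq annotation of GRCm38.p6, *Ptgs2* lies on chromosome 1 from 150100031 to 150108234, and *Ptges*, *Ptges2* and *Ptgs1* lie on chromosome 2, at 30889471 to 30931020, 32395890 to 32402740 and 36216742 to 36258593. *Ptgr1* lies on chromosome 4 from 58965590 to 58987131 and *Hpgd* on chromosome 8 from 56294552 to 56321046. *Alox12e* (70315610 to 70322720) and *Alox15* (70344147 to 70390538) are neighbours on chromosome 11. RefSeq gives 7 of the 8 genes, not *Alox15*, a promoter window, and the 250 bases before the start are shown for 4 of them. *Ptgs2* and *Ptges* were chosen because their levels went together over the cell types, *Ptges2* because its level ran opposite to *Ptges*, and *Ptgr1* because its levels separated the genotypes in more cell types than those of the other 7. The windows, on GRCm38.p6, are chr1:150099781-150100030 (plus strand) for *Ptgs2*, chr2:30903298-30903547 (minus) for *Ptges*, chr2:32395640-32395889 (plus) for *Ptges2* and chr4:58987079-58987328 (minus) for *Ptgr1*. The *Ptges* window lies inside the annotated span of the gene, before one of its transcript starts. The *Ptgr1* window overlaps the annotated span of its gene, which ends at 58987131, in the bases nearest the start. Each is written 5′ to 3′ on the strand of the gene, and capitals mark the motifs listed after them.
Ptgs2 promoter: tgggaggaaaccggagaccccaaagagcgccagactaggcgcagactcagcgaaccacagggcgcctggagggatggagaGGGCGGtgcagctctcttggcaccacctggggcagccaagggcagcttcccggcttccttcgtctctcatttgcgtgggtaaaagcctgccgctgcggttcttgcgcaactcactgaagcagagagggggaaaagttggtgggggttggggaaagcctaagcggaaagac
Ptges promoter: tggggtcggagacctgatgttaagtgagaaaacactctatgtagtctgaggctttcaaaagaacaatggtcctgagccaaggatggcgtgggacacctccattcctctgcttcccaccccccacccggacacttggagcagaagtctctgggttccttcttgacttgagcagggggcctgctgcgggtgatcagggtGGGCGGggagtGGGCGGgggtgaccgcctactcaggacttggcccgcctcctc
Ptges2 promoter: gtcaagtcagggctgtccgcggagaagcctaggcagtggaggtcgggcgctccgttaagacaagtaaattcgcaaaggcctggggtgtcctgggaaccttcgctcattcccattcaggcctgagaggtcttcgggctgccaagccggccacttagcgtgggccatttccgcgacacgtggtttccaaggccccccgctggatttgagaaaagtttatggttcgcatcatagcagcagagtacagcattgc
Ptgr1 promoter: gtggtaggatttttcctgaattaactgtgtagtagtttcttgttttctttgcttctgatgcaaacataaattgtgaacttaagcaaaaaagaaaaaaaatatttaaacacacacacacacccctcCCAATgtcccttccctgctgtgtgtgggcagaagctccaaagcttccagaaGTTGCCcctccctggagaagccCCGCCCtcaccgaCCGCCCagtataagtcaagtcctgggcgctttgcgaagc
Searched on both strands were the TATA box TATAAA, the CCAAT box CCAAT, the GC box GGGCGG, the cyclic AMP response element core CGTCA, the antioxidant response element core TGACNNNGC and the RFX motif GTTGCC. GC boxes were found 1 time for *Ptgs2*, 2 times for *Ptges*, 2 times for *Ptgr1* and in 0 places for *Ptges2*, and 5 of the 7 windows of these enzymes held one, against 32.7% of the 32851 windows of all genes. The *Ptgr1* window also held a CCAAT box 125 bases and an RFX motif 74 bases before the start, letters present in 33.8% and 10.4% of all windows. The TATA box, CGTCA and the antioxidant core, found in 12.4%, 17.8% and 10.2% of all windows, were not in any of the 7. Both GC boxes of *Ptgr1*, 39 and 52 bases before the start, lie in the stretch that overlaps its annotated span. All of these are matches of letters, not binding sites.

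Both cyclooxygenases were low in Multiciliated3 and Multiciliated4 and higher in most basal types, but they peaked in different basal types. *Ptgs1* averaged 41.0 ± 18.4 CPM (SD, n = 5 mice) in Basal5, 32.7 ± 13.3 (n = 5) in Basal8, 30.6 ± 4.30 (n = 6) in Basal3, 23.8 ± 16.2 (n = 5) in Basal7, 22.3 ± 2.77 (n = 6) in Basal6 and 20.9 ± 3.76 (n = 4) in Basal4. It averaged 17.3 ± 3.55 CPM in Basal2, 11.7 ± 3.67 in Secretory2, 11.2 ± 3.28 in Basal1 and 6.61 ± 2.34 in Secretory1 (n = 6 each). In Multiciliated1 it stood at 7.18 ± 3.09 CPM, and it was 3.90 ± 1.85 CPM in Multiciliated2, 0 to 4.98 CPM over 5 mice in Multiciliated4 and 1.35 ± 0.54 CPM in Multiciliated3, the 3 lowest of the 14 types with several mice. No 2 neighbours in this order were separated beyond the range of their mice. A UMI of *Ptgs1* was found in 61.8% of Basal8 cells (exact binomial 95% interval 57.2% to 66.3%) and in 2.95% of Multiciliated3 cells (2.35% to 3.66%), or 15.3% and 0.531% after thinning each cell to 5000 UMIs. Intervals on shares cover counting error only. In Ionocyte, 0 of 28 cells had a UMI, and in Neuroendocrine *Ptgs1* stood at 1.00 CPM.

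*Ptgs2* was highest in Basal3, where the level per mouse was 409, 621 and 623 CPM in WT1, WT2 and WT3 and 778, 426 and 138 CPM in MT1301, MT1306 and MT1383. Basal3 held 8.01% of all UMIs and 25.6% of those of *Ptgs2*. The means of the other types were 246 ± 115 CPM in Secretory2, 234 ± 81.0 in Basal1, 197 ± 110 in Basal6, 191 ± 127 in Secretory1, 181 ± 115 in Basal8, 133 ± 85.0 in Multiciliated1, 116 ± 52.1 in Basal2, 115 ± 68.5 in Basal7 and 92.0 ± 135 in Basal5. The 4 lowest were Multiciliated2 (63.8 ± 50.9 CPM), Multiciliated3 (24.6 ± 15.7), Basal4 (15.7 ± 7.24) and Multiciliated4 (2.29 ± 3.19). Of neighbours in this order, Basal4 and Multiciliated4 had ranges that did not overlap (lowest Basal4 mouse 7.94 CPM, highest Multiciliated4 mouse 6.49). Basal4 thus combined *Ptgs1* at 20.9 CPM with *Ptgs2* at 15.7 CPM, whereas the cells of Basal3 had both genes near their highest levels. At 5000 UMIs per cell, a UMI of *Ptgs2* was found in 72.7% of Basal3, 3.30% of Basal4 and 1.80% of Multiciliated4 cells. Without thinning, the exact binomial interval was 88.6% to 91.2% in Basal3 and the shares were 12.4% in Basal4 and 3.42% in Multiciliated4. In Neuroendocrine, of similar depth to Multiciliated4 (medians of 10351 and 10197 UMIs), the share was 3.07%, so the 2 types had like shares at this depth.

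The 2 prostaglandin E synthase genes had opposite patterns. *Ptges* was highest in Secretory1, at 157, 160 and 151 CPM in the *WT/WT* mice and 202, 152 and 178 CPM in the *MIS/MIS* mice. Each of these mice was above the highest mouse of the next type by mean, Basal2 (131 CPM). The highest Basal7 mouse, at 178 CPM, was within the range of the Secretory1 mice. Secretory1 held 45.5% of the *Ptges* UMIs and 22.7% of all UMIs, and 96.0% of its cells had a UMI of the gene (55.0% when thinned). The means were 105 ± 15.8 CPM in Basal2, 98.1 ± 14.3 in Secretory2, 92.7 ± 55.0 in Basal7, 82.4 ± 11.9 in Basal3, 82.2 ± 24.8 in Basal5, 78.4 ± 11.7 in Multiciliated1, 78.2 ± 14.8 in Basal6, 58.4 ± 28.0 in Basal8 and 40.9 ± 15.6 in Basal1. The lowest Basal1 mouse (21.6 CPM) stood above the highest mouse of the next type by mean, Multiciliated2 (19.3 CPM). Multiciliated2 averaged 14.3 ± 4.48 CPM, and after it came Basal4 (3.79 to 32.5 over 4 mice), Multiciliated3 (3.05 ± 0.76) and Multiciliated4 (2.19 ± 4.06). The highest Basal4 mouse lay above that gap. The *Ptges* level of Multiciliated1 thus lay among those of the basal types, and the mice of Multiciliated3 (highest 4.40 CPM) overlapped those of Basal4 and lay below those of the other 7 basal types.

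*Ptges2* had the opposite order over the multiciliated types, from 27.1 ± 2.65 CPM in Multiciliated1 to 37.5 ± 3.52 in Multiciliated2, 54.5 ± 5.52 in Multiciliated3 and 74.5 ± 19.0 in Multiciliated4. The lowest Multiciliated3 mouse (44.2 CPM) stood above the highest Multiciliated2 mouse (42.7 CPM). In the 10 basal and secretory types the means lay between 18.5 ± 1.32 CPM in Secretory2 and 28.7 ± 3.27 in Basal1, with 28.2 ± 6.02 in Basal7, 23.3 ± 2.46 in Basal2, 22.4 ± 4.12 in Basal6, 21.8 ± 1.45 in Basal4, 21.4 ± 3.14 in Basal5, 20.7 ± 2.70 in Basal8, 19.6 ± 1.02 in Secretory1 and 19.1 ± 0.77 in Basal3. Multiciliated3 held 9.92% of all UMIs and 21.2% of those of *Ptges2*. At 5000 UMIs per cell, 24.1% of Multiciliated3 cells and 8.99% of Secretory1 cells had a UMI of *Ptges2*, and 1.48% and 55.0% had one of *Ptges*.

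*Ptgr1*, the reductase, had its highest mean in Basal4. Its mean there was 189 ± 98.2 CPM (n = 4), and Basal4 held 24.5% of the *Ptgr1* UMIs and 6.11% of all UMIs. Basal8 followed with 101 ± 28.9 CPM (n = 5). The other levels were 60.9 ± 10.4 in Secretory2, 60.0 ± 11.7 in Secretory1, 39.9 to 79.1 over the 5 mice of Multiciliated4, 59.1 ± 16.4 in Basal6, 58.8 ± 6.80 in Multiciliated1, 56.6 ± 9.16 in Multiciliated3, 44.1 ± 12.8 in Basal5, 41.7 ± 9.22 in Basal2, 34.8 ± 4.75 in Multiciliated2, 34.8 ± 7.28 in Basal1, 34.6 ± 5.96 in Basal3 and 31.3 ± 7.13 in Basal7, and each neighbouring pair overlapped. Ionocyte and Neuroendocrine were lower, at 7.21 and 8.02 CPM over all their cells.

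*Hpgd*, the inactivating dehydrogenase, was a gene of Multiciliated2 and Secretory2. In Multiciliated2, where *Foxj1* and *Ccno*, a gene of centriole amplification, were highest, the mice had 107, 48.6 and 58.0 CPM (*WT/WT*) and 59.3, 67.8 and 79.3 CPM (*MIS/MIS*). Multiciliated2 and Secretory2 (28.3 ± 14.4 CPM) together held most of its UMIs, 28.5% and 36.5%, with 4.69% and 13.0% of all UMIs. Multiciliated1 (12.3 ± 5.18 CPM), Multiciliated4 (9.54 ± 9.31), Basal6 (8.45 ± 7.92), Multiciliated3 (7.77 ± 3.74) and Secretory1 (5.79 ± 2.16) came next. The other 7 basal types were between 2.87 ± 2.49 CPM in Basal3 and 0.342 ± 0.242 in Basal4. A UMI of *Hpgd* was found in 51.2% of Multiciliated2 cells and 1.39% of Basal4 cells, and 0 of 28 ionocytes had one, which allows a share of up to 12.3% (exact binomial). Secretory2 thus exceeded Secretory1 in *Hpgd*, with every Secretory2 mouse at 16.4 CPM or more and every Secretory1 mouse at 8.49 CPM or less.

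The lipoxygenase genes varied widely between mice in several types. *Alox15* averaged 25.8 ± 20.4 CPM in Multiciliated1, 23.7 ± 6.68 in Secretory1, 21.7 ± 11.4 in Basal4, 18.3 ± 24.0 in Basal7, 15.5 ± 18.4 in Multiciliated3 and 10.3 ± 9.10 in Basal5. In the other 8 types it stood between 4.70 ± 4.10 CPM in Multiciliated2 and 0.137 ± 0.117 in Basal3. Secretory1 was the steadiest of the high types, with 25.1, 16.9 and 23.4 CPM in the *WT/WT* mice and 21.1, 36.0 and 19.6 CPM in the *MIS/MIS* mice, and it held 45.4% of the *Alox15* UMIs. In Multiciliated3, WT3 had 52.9 CPM and the other 5 mice had 4.25 to 9.79 CPM. In Basal7, WT1 had 52.7 CPM and MT1306 34.5 CPM, while WT2, WT3 and MT1301 had 1.67, 0.543 and 1.88 CPM.

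*Alox12e* was highest in Basal5 (18.5 ± 16.9 CPM) and Basal7 (16.7 ± 22.9), followed by Basal8 (5.93 ± 5.77), Basal4 (3.48 ± 4.63), Secretory1 (2.19 ± 1.95) and Multiciliated1 (2.18 ± 1.41). The other 8 types averaged 1.64 CPM or less, with 0 of 146 cells of Multiciliated4 having a UMI (up to 2.49% allowed). In Basal7 the same pair of mice as for *Alox15* was high, WT1 at 30.1 CPM and MT1306 at 50.8 CPM, and the other 3 mice were at 2.66 CPM or less. Basal5 held 4.25% of all UMIs and 37.5% of those of *Alox12e*, and 12.7% of its cells had a UMI of the gene, against 0.137% of Basal3 cells. Over the 8 genes, 4 of 104 pairs of neighbouring types had mice that did not overlap, and those 4 are named in the preceding paragraphs.

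**Figure D1:**
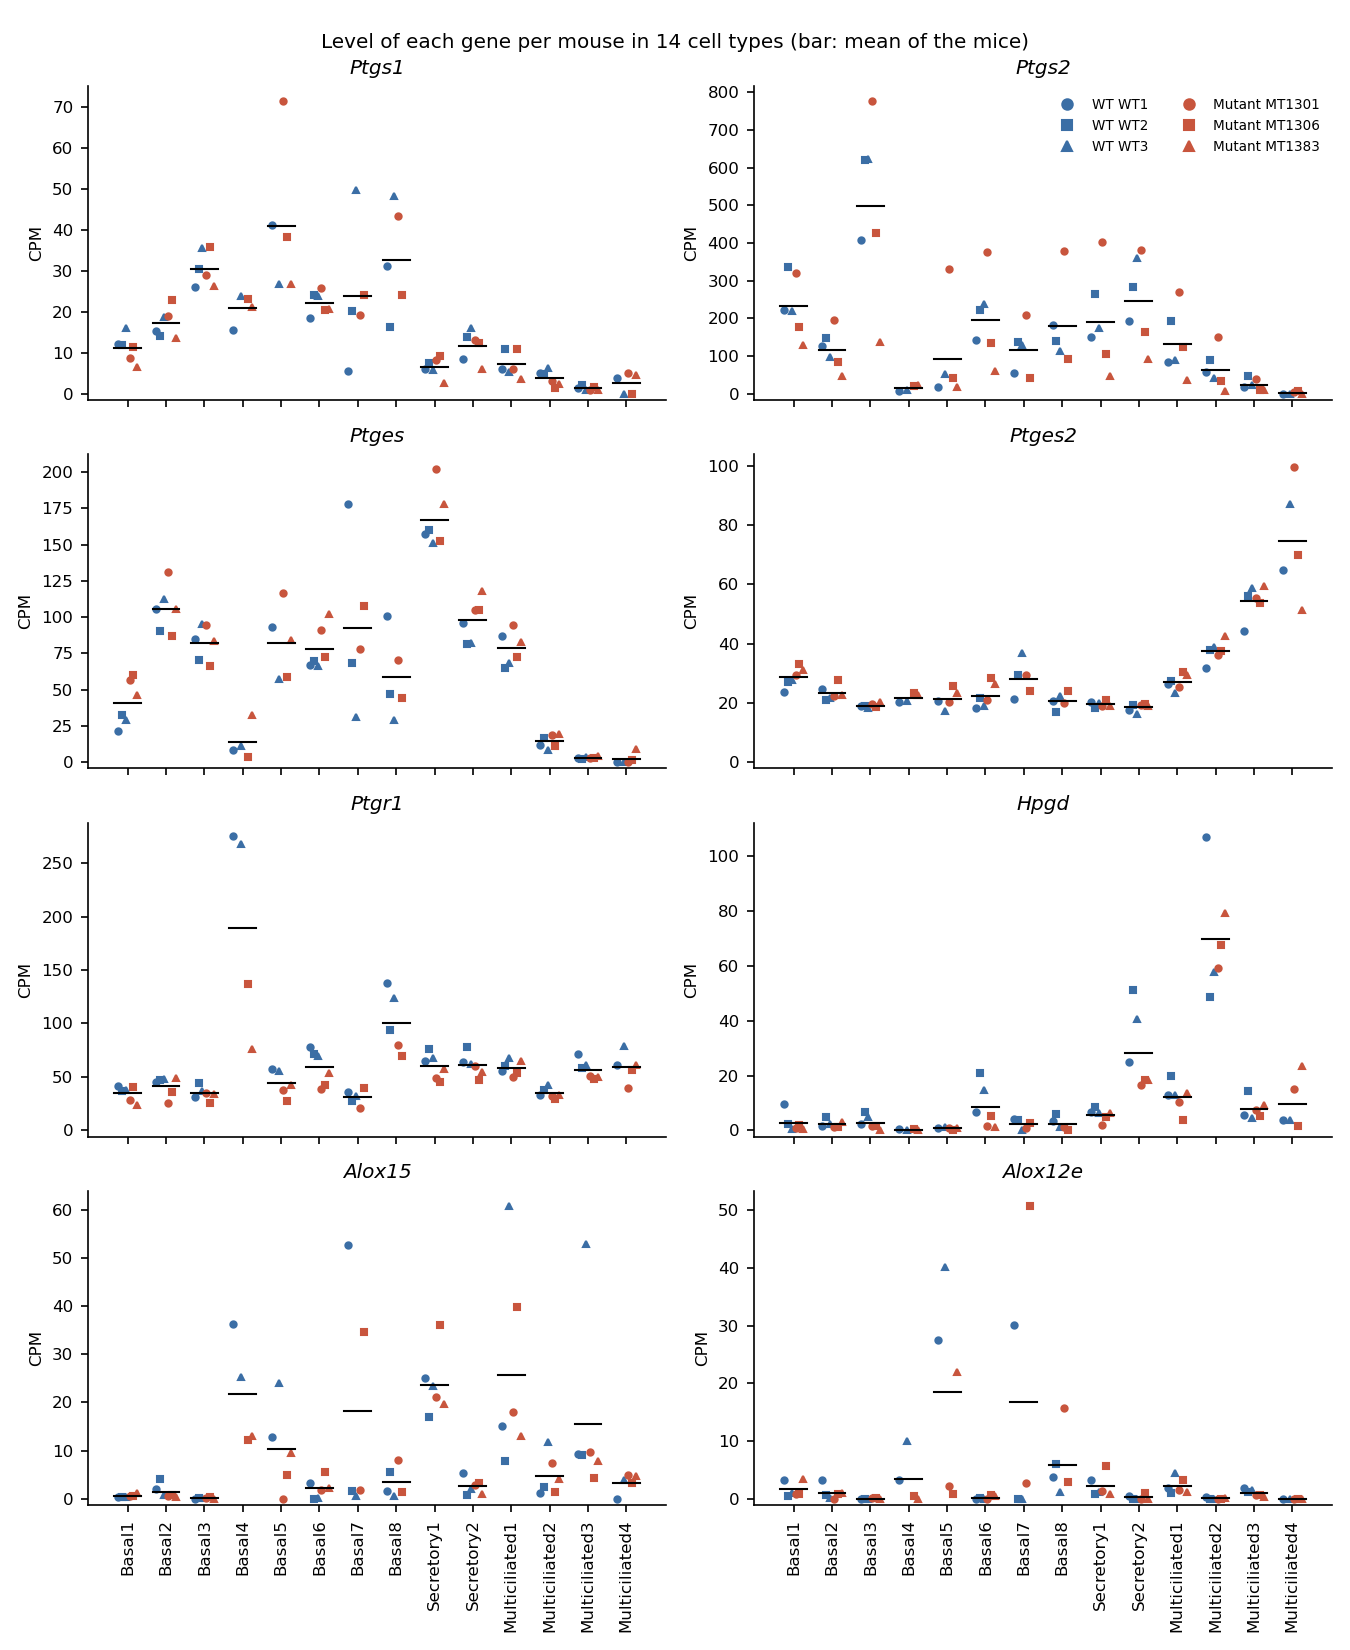
Level of each of the 8 genes in CPM (linear axis) in 14 cell types, with a point for each mouse that had at least 20 cells of the type (blue *WT/WT*, red *MIS/MIS*, labelled Mutant) and a bar at their mean. In Multiciliated3, *Ptges* averages 3.05 CPM and *Ptges2* 54.5 CPM, and *Ptgs2* has its highest mean, 499 CPM, in Basal3.

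The enzymes of consecutive steps were also counted in the same cells. A UMI of either cyclooxygenase together with one of *Ptges* was found in 72.0% of Secretory1, 69.9% of Basal3, 68.8% of Secretory2 and 66.4% of Basal6 cells. The share was 44.1% in Multiciliated1, 15.9% in Multiciliated2, 7.11% in Basal4 and 2.69% in Multiciliated3. Both cyclooxygenases were found in 50.4% of Basal8 and 43.1% of Basal3 cells and in 1.29% of Multiciliated3 cells. These shares were not thinned and move with the depth of the cells, whose median was 42985 UMIs in Basal8 and 26360 in Multiciliated3.

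Across the 15 types of at least 100 cells, log2(CPM + 1) of *Ptges* had a Pearson r of 0.78 with *Ptgs2*, 0.66 with *Ptgs1* and -0.82 with *Ptges2*, and *Ptges2* had r of -0.75 with *Ptgs1*. *Alox12e* had r of 0.50 with *Alox15* and -0.62 with *Hpgd*, and *Ptgr1* had r of 0.61 with *Alox15*. The types share the same 6 libraries and are not independent, so these values only describe the patterns. Among 11566 genes, the pattern most like that of *Ptges2* was of *Trp53rkb* (r = 0.98), *Pttg1* and *Dnal4* (both 0.97), and the one most like that of *Ptges* was of *Lif* (0.96), *Tgfb2* (0.96) and *Msln* (0.94). *Ptgs2* was followed most closely by *Osr1* (0.94), *Tnfrsf10b* (0.94) and *Eva1a* (0.92), and *Ptgs1* by *Rgs10*, *9130008F23Rik* and *Flrt2* (0.93 each). For *Ptgr1* the genes were *Gsto1* (0.89), *Net1* (0.88) and *Hopx* (0.85), and for *Hpgd* *Nudt12* (0.87), *Itih2* (0.86) and *Swt1* (0.85). *Alox15* went with *Cyp2a5* (0.84), *Cyp2b10* (0.81) and *Tprn* (0.79), and *Alox12e* with *Muc20* (0.85), *Spns2* (0.79) and *Szrd1* (0.79).

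To compare the genotypes, UMIs were summed per mouse over the multiciliated, secretory or basal types and tested with limma's voom method, with Benjamini-Hochberg adjustment over all genes tested. The comparison asks whether cells with the missense allele transcribe these enzymes at other levels. None of the 8 genes passed an adjusted p of 0.05 in any class. In multiciliated cells 1 of 14206 genes passed (0.00704%), in secretory cells 1 of 13610 (0.00735%) and in basal cells 0 of 14615 (0%), and limma-trend gave the same 3 counts. The gene was *Wdfy1*, named after its values were seen, in both classes, and in secretory cells it no longer passed when any 1 mouse was left out (0 genes higher in each such fit). At an unadjusted p under 0.05 there were 614 genes (4.32%), 258 (1.9%) and 334 (2.29%) in the 3 classes, among them 2, 2 and 1 of the 8 enzymes. The mice of the genotypes did not overlap for 10%, 5.48% and 7.94% of all genes tested in the 3 classes, and for 0, 2 and 4 of the 8 enzymes.

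**Figure D2:**
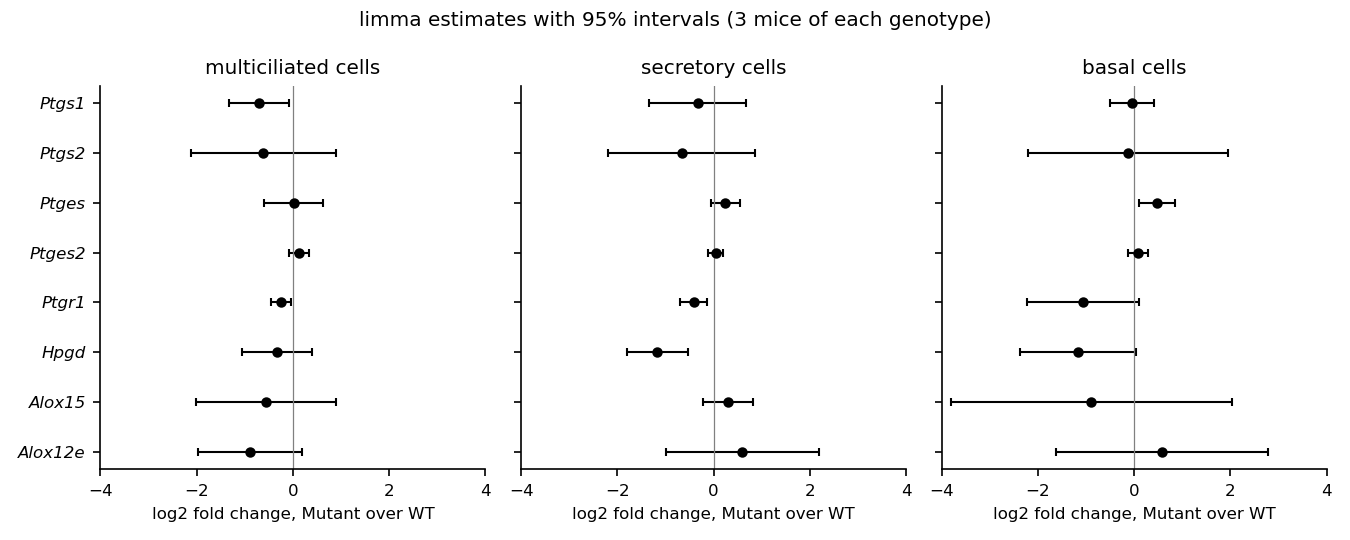
Log2 fold change of each gene, *MIS/MIS* (Mutant) over *WT/WT*, in multiciliated, secretory and basal cells, with points for limma's estimates and bars for 95% intervals (3 mice of each genotype). *Hpgd* in secretory cells is at -1.17 and *Ptgr1* at -0.41, and the intervals of *Ptgs2* span 0 in the 3 classes.

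*Ptgr1* had the lower estimate in *MIS/MIS* mice in each class. In secretory cells it stood at 64.5, 76.9 and 65.9 CPM in WT1, WT2 and WT3 and at 53.2, 46.2 and 56.9 CPM in MT1301, MT1306 and MT1383. The 3 *MIS/MIS* mice were thus below the 3 *WT/WT* mice, with a log2 fold change of -0.41 (SE 0.12, 95% interval -0.69 to -0.13, adjusted p = 0.9997), ranked 41 of 13610 genes by p. In multiciliated cells the levels were 58.2, 50.5 and 59.6 against 45.3, 46.8 and 51.0 CPM, where MT1383 overlapped WT2 (log2 fold change -0.25, SE 0.09, adjusted p = 0.896). In basal cells WT1 had 177 CPM, WT2 and WT3 had 47.0 and 70.8 CPM and the *MIS/MIS* mice had 39.0, 46.0 and 41.7 CPM (log2 fold change -1.06, SE 0.49). That value was -0.47 without WT1, whose basal cells were mostly Basal4. It was also -0.47 with equal numbers of Basal1, Basal2, Basal3 and Basal6 cells in every mouse, which leaves out Basal4, Basal5, Basal7 and Basal8. The part of Basal4 in these shifts was not tested.

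Within cell types, *Ptgr1* was lower in every *MIS/MIS* mouse than in every *WT/WT* mouse in 9 of the 14 types that could be compared. Among 8460 genes of at least 10 CPM, 3 reached 9 such types (0.0355%), and the median gene had 1. The number 9 was set by *Ptgr1* itself, and the types come from the same mice. The other 2 genes, named after their values were seen, were *Gm47283* (14 types) and *Itm2b* (9 types). Some types were short of mice, and over the 9 types with at least 20 cells of all 6 mice, *Ptgr1* was below without overlap in 5 (0.13% of genes reached 5), namely Basal6, Secretory1, Secretory2, Multiciliated2 and Multiciliated3.

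In Basal6, a basal type with the proliferation genes *Mki67* and *Top2a*, *Ptgr1* stood at 78.3, 71.1 and 69.9 CPM in the *WT/WT* mice and 38.7, 42.7 and 53.9 CPM in the *MIS/MIS* mice (log2 fold change -0.72, SE 0.13, adjusted p = 0.757). In Multiciliated3 it stood at 71.8, 58.6 and 61.2 against 50.5, 47.9 and 49.6 CPM (-0.36, SE 0.09, adjusted p = 0.978). In Secretory1 the levels were 64.8, 76.0 and 67.9 against 48.9, 45.5 and 57.1 CPM (-0.47, SE 0.12). The estimate farthest from 0 was in Basal4, with 275 and 268 CPM in WT1 and WT3 and 137 and 76.3 CPM in MT1306 and MT1383, where WT2 and MT1301 had too few cells (-1.23, SE 0.25, adjusted p = 0.372). In Multiciliated2 and Multiciliated4 the groups were apart by less than 1 CPM, at 33.5 against 32.9 CPM and 61.0 against 60.7 CPM for the closest mice. The groups overlapped in Basal1, Basal2, Basal3, Basal7 and Multiciliated1. In the fits within types, *Ptgr1* did not pass the adjusted threshold in any of the 14.

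**Figure D3:**
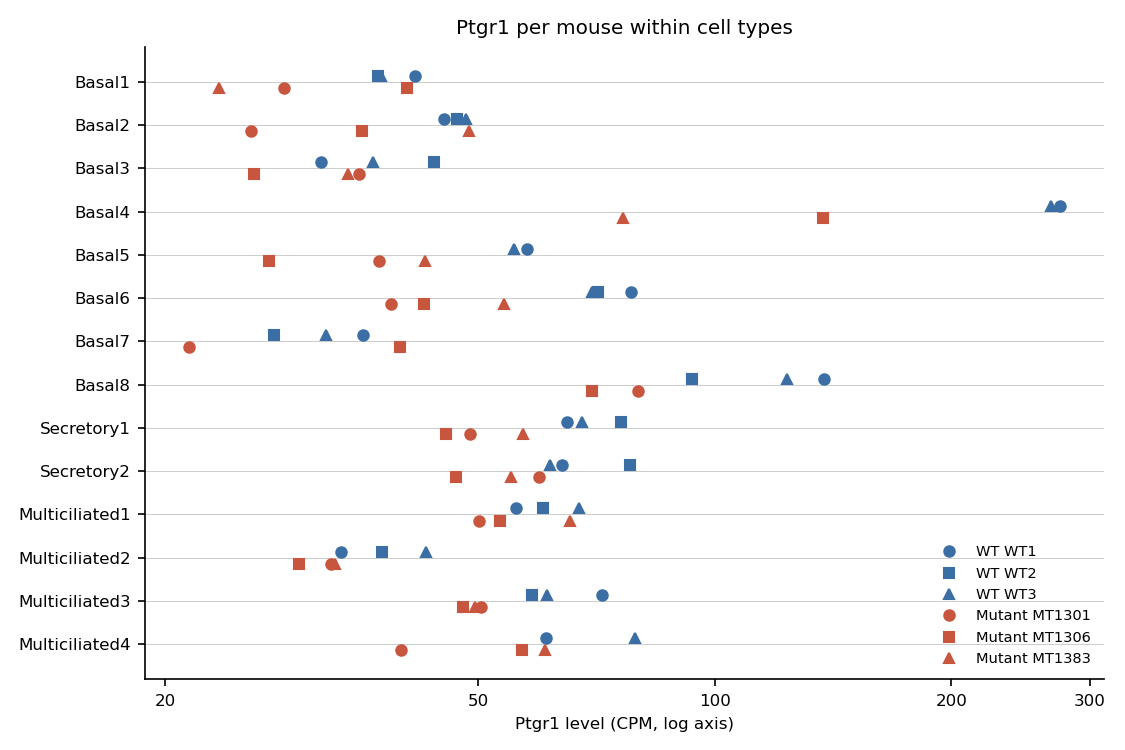
*Ptgr1* level in CPM (log axis) for each mouse with at least 20 cells of the type, by cell type (blue *WT/WT*, red *MIS/MIS*, labelled Mutant). The red points lie left of the blue ones in 9 of 14 types, most widely in Basal4.

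*Hpgd* had its lower values in *MIS/MIS* secretory and basal cells. In secretory cells the *WT/WT* mice had 14.4, 26.2 and 17.1 CPM and the *MIS/MIS* mice 7.68, 11.8 and 7.52 CPM. The groups did not overlap, and the log2 fold change of -1.17 (SE 0.27, 95% interval -1.80 to -0.54) ranked 15 of 13610 genes by p but had an adjusted p of 0.9997. The difference was also present within Secretory2, at 24.9, 51.3 and 40.7 against 16.4, 18.4 and 18.4 CPM (-1.14, SE 0.27). In Secretory1 the groups overlapped (-0.94, SE 0.39). In Basal6 the levels were 6.79, 21.0 and 14.9 against 1.47, 5.30 and 1.19 CPM (-3.00, SE 0.60, adjusted p = 0.998), on 254 UMIs in all. In Basal3 they were 2.35, 6.69 and 5.01 against 1.47, 1.69 and 0 CPM. In Multiciliated2, where *Hpgd* was highest, the groups overlapped (0.09, SE 0.26), and over all multiciliated cells the log2 fold change was -0.33 (SE 0.32). Over all basal cells the levels were 1.88, 6.82 and 2.92 against 1.23, 1.59 and 1.73 CPM (-1.17, SE 0.50), and the value was -2.32 with equal numbers of the 4 basal types in every mouse (adjusted p = 0.092). It was -0.69 without WT2, the mouse with the highest *Hpgd* in 7 of the 9 types with all mice.

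*Ptges* had higher values in *MIS/MIS* basal cells, at 83.2, 62.8 and 84.8 CPM against 42.9, 57.5 and 60.4 CPM in *WT/WT* (log2 fold change 0.47, SE 0.16, adjusted p = 0.9999). The groups were apart, in the same direction, in Basal1 (56.6, 59.8 and 46.0 against 21.6, 32.5 and 29.0 CPM, log2 fold change 0.83, SE 0.18, adjusted p = 0.812), in Basal6 (0.37, SE 0.13) and in Secretory2 (0.32, SE 0.08). They overlapped in the other basal types, where the estimates were -0.0093 in Basal2, -0.045 in Basal3, -0.76 (SE 0.56) in Basal4, -0.054 in Basal5, 0.28 (SE 0.63) in Basal7 and 0.15 (SE 0.41) in Basal8. Over all basal cells the value was 0.36 without WT1 and 0.34 with equal numbers of the 4 basal types in every mouse. The basal cells of WT1 were mostly Basal4, where *Ptges* was low, and WT1 also had the lowest *Ptges* in Basal1 (21.6 CPM). The part of either in these shifts was not tested. In secretory cells the estimate was 0.24 (SE 0.13) and in multiciliated cells 0.01 with a 95% interval of -0.59 to 0.62. *Ptges2* varied little, with log2 fold changes of 0.13, 0.04 and 0.08 in multiciliated, secretory and basal cells and 95% intervals of -0.08 to 0.34, -0.11 to 0.20 and -0.12 to 0.29. Its basal groups did not overlap, at 20.8, 23.0 and 23.0 against 23.1, 25.7 and 24.9 CPM.

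*Ptgs2* differed more between *MIS/MIS* mice than between the genotypes. In secretory cells it stood at 168, 273 and 232 CPM in the *WT/WT* mice and at 395, 135 and 51.0 CPM in MT1301, MT1306 and MT1383, so that 1 *MIS/MIS* mouse was the highest and another the lowest of the 6. In the 9 types with all mice, MT1301 was highest in 7 and MT1383 lowest in 8. The log2 fold changes were -0.62 (SE 0.65), -0.67 (SE 0.65) and -0.12 (SE 0.87) in multiciliated, secretory and basal cells, and they became 0.039, 0.029 and 0.61 without MT1383 and -1.41, -1.39 and -0.85 without MT1301. MT1383 also had the lowest median depth (21328 UMIs per cell), whose part in this order was not tested. A list of 7 immediate-early genes, which are switched on in handled or stimulated cells and were listed after the *Ptgs2* values were seen, lay between 2493 and 2982 CPM in the 6 mice, at 2982 in MT1301 and 2854 in MT1383. *Ptgs1* had a log2 fold change of -0.71 in multiciliated cells (SE 0.27, adjusted p = 0.896), at 3.70, 5.32 and 3.10 against 2.67, 3.20 and 2.10 CPM, and of -0.33 (SE 0.43) and -0.05 (SE 0.19) in secretory and basal cells.

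**Figure D4:**
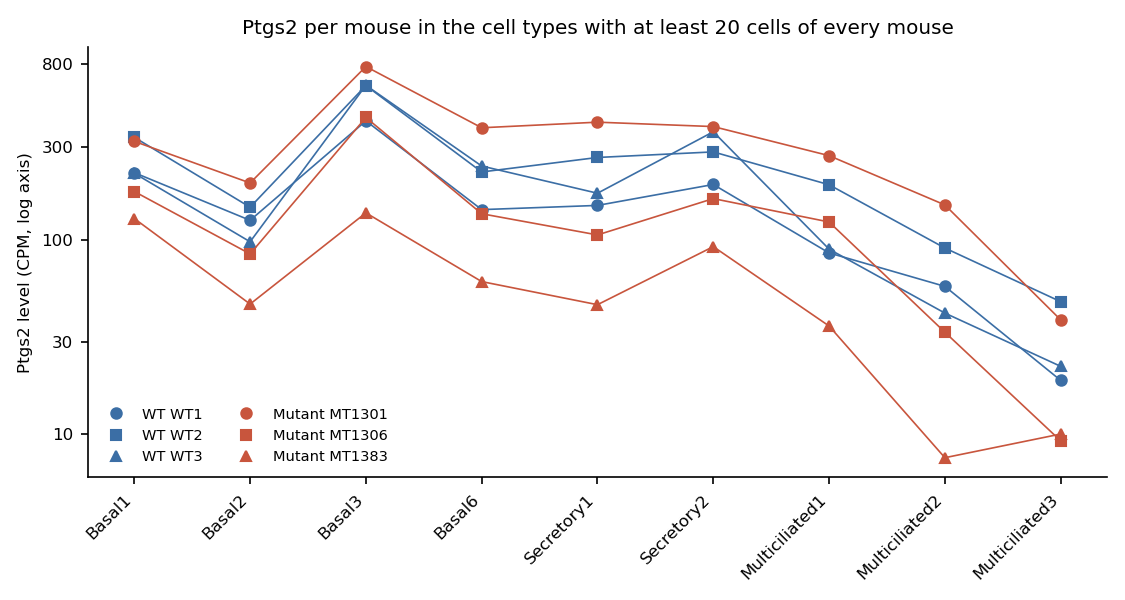
*Ptgs2* level in CPM (log axis) in the 9 cell types with at least 20 cells of every mouse, with a line for each mouse (blue *WT/WT*, red *MIS/MIS*, labelled Mutant). MT1301 lies on top in 7 types and MT1383 at the bottom in 8, and the 3 *WT/WT* mice lie between them in most.

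For *Alox15* in multiciliated and basal cells and *Alox12e* in secretory and basal cells, leaving out a single mouse could change the sign of the estimate. *Alox15* in multiciliated cells stood at 8.95, 6.01 and 46.4 CPM in WT1, WT2 and WT3 and 10.8, 9.99 and 8.61 CPM in the *MIS/MIS* mice (log2 fold change -0.56, SE 0.63), and without WT3 the estimate was 0.37. Over all cells WT3 had the highest summed level of the 6 fibroblast markers, 69.1 CPM against 4.22 to 21.2 CPM in the other mice. In multiciliated cells it had 6.04 CPM and the other mice 1.05 to 7.01 CPM. In basal cells the list stood at 133 CPM in WT3 and at 7.03 to 44.0 CPM in the other mice. *Dcn*, with 9588 of the 14311 UMIs of that list, was highest in Ionocyte (222 CPM) and reached 58.8 CPM in Basal2. The rest of the list was highest in Basal1, with *Col1a2* at 27.0 CPM, *Col1a1* at 26.8, *Col3a1* at 6.06, *Pdgfra* at 0.860 and *Lum* at 0.188. Whether these markers bear on the *Alox15* level of WT3 was not tested. In basal cells *Alox15* stood at 24.1 CPM in WT1 and at 0.900 to 3.91 CPM in the other 5 mice (-0.89, SE 1.22). The estimate was 0.48 without WT1 and 1.56 with equal numbers of Basal1, Basal2, Basal3 and Basal6 cells in every mouse. In secretory cells the estimate was 0.30 (SE 0.22), with overlapping groups. *Alox12e* had log2 fold changes of -0.89 (SE 0.47), 0.60 (SE 0.68) and 0.58 (SE 0.92) in the 3 classes. In Multiciliated3 its groups did not overlap, at 1.93, 1.20 and 1.53 against 0.687, 0.635 and 0.323 CPM, on 60 UMIs in all.

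Counted over the 14 types, the *MIS/MIS* mice were below the *WT/WT* mice without overlap in 3 types for *Hpgd*, 3 for *Alox12e*, 2 for *Ptgs1* and 2 for *Alox15*, and above in 3 for *Ptges*, 2 for *Ptges2*, 1 for *Ptgs2* and 1 for *Alox15*. Among the 8460 genes of at least 10 CPM on average over the types, the median gene had 1 type in each direction. *Alox15* (9.29 CPM) and *Alox12e* (3.71 CPM) were below that limit. No enzyme passed the adjusted threshold in any type, with between 108 and 913 genes per type at an unadjusted p under 0.05. All genes passed at rates of 0% in Basal1, Basal4, Basal5, Basal6, Basal7 and Basal8, 0.00896% in Basal2, 0.00847% in Basal3, 0.00759% in Secretory1, 0.00808% in Secretory2, 0.00874% in Multiciliated1, 0.00857% in Multiciliated2, 0.0229% in Multiciliated3 and 0.247% in Multiciliated4.

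The genotype effect was also compared between classes within the same mice. Of the 8 enzymes and of all genes, 0 passed (0% of 15134 genes for secretory against multiciliated cells, 0% of 16008 for basal against multiciliated and 0% of 14888 for basal against secretory, with 3.45%, 3.75% and 3.16% at an unadjusted p under 0.05). The estimates farthest from 0 were those of *Alox15* (-1.89, SE 0.99, basal minus secretory) and *Alox12e* (1.44, SE 0.54, secretory minus multiciliated). For *Ptgr1* the difference between secretory and multiciliated cells was -0.14 with a 95% interval of -0.47 to 0.20, and for *Hpgd* it was -0.83 with an interval of -1.71 to 0.06.

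The surrounding pathway was represented by 56 further genes. Of these, 39 were tested in multiciliated, 38 in secretory and 42 in basal cells, and 0 passed the adjusted threshold in either direction, with 3, 2 and 4 at an unadjusted p under 0.05. Their median log2 fold changes were -0.0065, -0.056 and -0.066 in the 3 classes, beside medians of 0.0066, -0.0044 and -0.0069 over all genes. Among the genes that release arachidonic acid, *Pla2g4a*, the cytosolic phospholipase A2, was highest in Multiciliated3 (108 CPM) and *Plaat3* in Multiciliated4 (397 CPM). Of the other synthases, *Hpgds*, which makes prostaglandin D2, reached 69.6 CPM in Multiciliated3, *Ptges3*, a co-chaperone also named as a prostaglandin E synthase, 1313 CPM in Multiciliated2, *Cbr1* 425 CPM in Multiciliated1 and *Akr1b3* 561 CPM in Basal1. *Ptgis* and *Tbxas1*, the prostacyclin and thromboxane synthases, stayed at or below 0.349 and 0.0942 CPM.

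*Hpgds* was among the genes under an unadjusted p of 0.05 in each class, with log2 fold changes of -0.50 (SE 0.22), -0.86 (SE 0.33) and -0.91 (SE 0.25) in multiciliated, secretory and basal cells, and it did not pass after adjustment. The others under that p went both ways. Higher in *MIS/MIS* were *Mgst2* in secretory cells (0.36, SE 0.09) and *Faah* in basal cells (0.55, SE 0.16). Lower were *Akr1c18* (-1.35, SE 0.53) and *Ephx1* (-0.22, SE 0.09) in multiciliated cells. In basal cells *Ltb4r1* (-2.05, SE 0.84) and *Ephx3* (-1.56, SE 0.56) were also lower. Of the pathway genes tested, 17 of 39, 14 of 38 and 11 of 42 had positive estimates in multiciliated, secretory and basal cells, beside 51.5%, 48.4% and 48.0% of all genes. The genes of arachidonate release had 9 of 12, 5 of 10 and 4 of 10 positive, the other synthases 2 of 5, 3 of 6 and 1 of 6, and inactivation and transport 0 of 6, 1 of 6 and 1 of 6. The receptors had 1 of 3, 1 of 4 and 0 of 4 positive, the other lipoxygenase and leukotriene genes 4 of 9, 4 of 8 and 4 of 11, the epoxide hydrolases 1 of 2, 0 of 2 and 1 of 3, and the regulators *Anxa1* and *S100a10* 0 of 2 in each class. Of the transport genes, the importer *Slco2a1* was highest in Basal8 (58.2 CPM) and Secretory2 (54.7 CPM) and was at 1.71 CPM in Multiciliated3. Prostanoid receptors were low. *Ptger4*, the most abundant of the 7 in the table, reached 15.9 CPM in Ionocyte and 13.9 in Basal7, and *Ptgdr* 13.0 CPM in Neuroendocrine. Among lipoxygenases, *Alox12* had its highest level, like *Alox12e*, in Basal5 (50.8 CPM), and *Alox5* was at or below 0.269 CPM in every type. *Mgst2* and *Mgst3*, which can conjugate leukotrienes with glutathione, reached 177 and 255 CPM in Basal4.

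**Figure D5:**
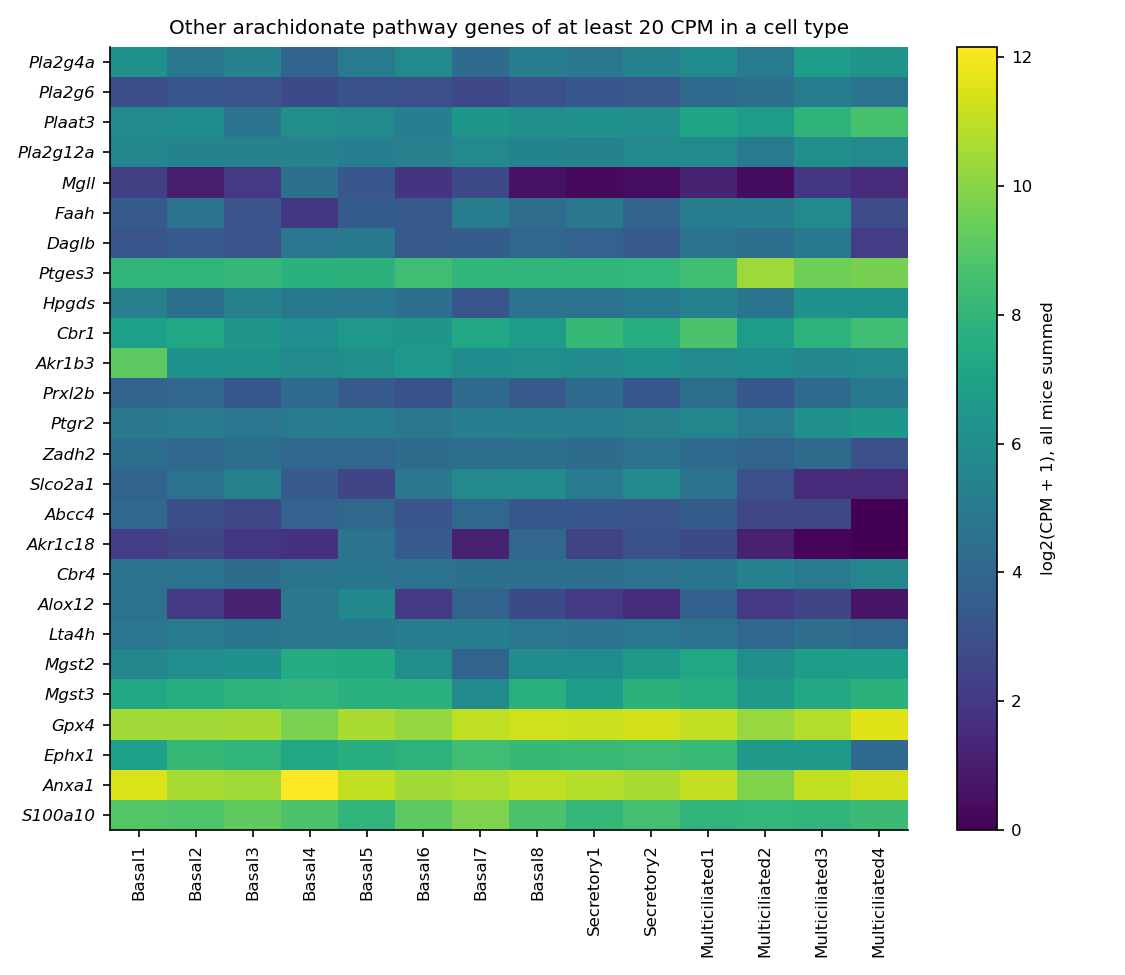
Level, as log2(CPM + 1) over all mice, of the 26 further pathway genes that reached 20 CPM in some cell type, in rows, by cell type in columns. *Ptges3* is brightest in Multiciliated2 (1313 CPM), *Akr1b3* in Basal1 (561 CPM) and *Slco2a1* darkest in Multiciliated3 and Multiciliated4.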

How the data were processed

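The authors ran 10x Genomics single-cell 3' libraries of 6 mice through Cell Ranger (7.1.0 with mm10 in the submitters' processing notes, while the methods name another version), and filtered, clustered and named cells with Seurat. A matrix of raw UMI counts and an annotation of the cells were deposited, both with a mistyped separator. All counts were whole numbers, and their sums per cell matched the totals in the annotation. Of 23871 cells, 23216 lay within the stated limits (2500 to 7500 genes, at most 25% mitochondrial counts). Apart from that gene limit, doublets were not treated. Free RNA was not removed.

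UMIs were summed per mouse. A count model had been planned, but the separator kept the tables from being recorded as counts, so limma 3.58.1 (R 4.3.3) with voom weights and TMM factors was used, on genes with 10 counts at the median library size in at least 3 mice, or 2 where a type had 2 mice of a genotype. Python 3.11.15 served for the rest. The test was checked on simulated data. The *MIS/MIS* libraries carry animal numbers and were used as replicates without one. The enzymes, gene lists and marker lists were chosen with earlier results of these data known. All 8 enzymes were named in every comparison. Further pathway genes were named from 20 CPM in a type or where they passed (0 did), and the 3 genes most like each enzyme by Pearson r. Other genes named, among them the pathway genes under 20 CPM (*Ptgis*, *Tbxas1*, *Alox5*, *Ptger4*, *Ptgdr*, *Ltb4r1*, *Ephx3*), were chosen after their values were seen. Alternatives are given in the closing section, and limma-trend was added after the data were seen. Positions and promoters come from RefSeq (GRCm38.p6).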

Additional observations from a re-analysis of the deposited data

How the results depend on the processing

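No paired analysis was possible because the *MIS/MIS* columns carry animal numbers and no replicate number shared with the *WT/WT* mice. Over the 24 log2 fold changes of the 8 enzymes in 3 classes, 243 of 263 alternative values kept their sign, and none passed an adjusted p of 0.05 (lowest 0.092, *Hpgd* in basal cells with equal subcluster composition). Signs changed for *Ptges* in multiciliated cells (-0.049 with limma-trend, -0.12 with the stated cell filters), *Alox12e* in secretory cells (-0.31) and *Alox15* in basal cells (1.56), both with equal subcluster composition, and the cause was not tested. With each mouse left out in turn, *Ptgs2* ranged from -1.41 to 0.039, -1.39 to 0.029 and -0.85 to 0.61 in multiciliated, secretory and basal cells. *Ptges* (-0.24 to 0.29) and *Alox15* (-1.25 to 0.37) in multiciliated cells, *Ptgs1* (-0.68 to 0.19) and *Alox12e* (-0.050 to 1.07) in secretory cells, and *Ptgs1* (-0.17 to 0.16), *Alox15* (-1.97 to 0.48) and *Alox12e* (-0.40 to 1.59) in basal cells also crossed 0. The count of 1 gene in secretory cells ranged from 0 to 0 with a mouse left out. With equal composition, 2 genes lower in multiciliated, 1 lower in secretory and 1 higher in basal cells passed. RLE size factors, no filter, limma-trend and the stated cell filters changed no count. Equal composition left *Alox12e* in basal cells under the filter. DESeq2 was not run, because the tables could not be recorded as counts, and voom became the main method. Low UMI counts of *Alox12e* and of *Hpgd* in basal cells limit their precision.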
